A study of Mus musculus with 6 samples.

Results

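Transcripts of the EGF receptor ligands and their ErbB receptors were followed in heart tissue by poly(A) RNA-seq, with 1 library from each of 6 C57BL/6 mice. The animals were 6 to 8 weeks old; 3 served as controls and 3 received angiotensin II (Ang II). The family comprised 10 genes, found by name among the 55401 gene rows of the table: the ligands Hbegf, Egf, Tgfa, Areg, Ereg and Btc, the neuregulin Nrg1, and the receptors Egfr, Erbb2 and Erbb4. The genes were chosen by measured values: Hbegf had the third smallest p of all genes in this same contrast, and the rest of its family was taken with it. The Ang II to control differences of the members are therefore given as a description, with no test behind them. Ang II is a peptide hormone that constricts vessels and raises blood pressure, and its dose, route and duration are not given in the sources used here, nor is what the control animals received. The series concerns corynoline in hypertensive heart failure, and no library of a corynoline-treated animal was analysed here. The label of the libraries says only heart, so the chamber is not known, and with bulk tissue fewer cells of a type and less RNA per cell cannot be told apart.

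The EGF receptor family consists of receptor tyrosine kinases that pair on binding a ligand and signal through the RAS-ERK and PI3K-AKT routes. HB-EGF, the product of Hbegf, is made as a membrane protein from which metalloproteases of the ADAM family release the soluble growth factor, and it binds EGFR and ERBB4. Release of HB-EGF downstream of angiotensin receptors is a textbook route by which a G protein-coupled receptor can activate EGFR in heart cells. Neuregulin 1 from endothelial cells acts on ERBB4 and ERBB2 in cardiomyocytes, and this signal is needed for the heart's development and upkeep.

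Libraries held 51202916 to 63564869 estimated counts, of which mitochondrially encoded genes took 35.8% to 47.6%. Their share was 47.6%, 37.3% and 41.3% in control replicates 1, 2 and 3. In Ang II replicates 1, 2 and 3 it was 37.4%, 36.4% and 35.8%. In the correlation of log2 CPM over 16759 tested genes, Ang II replicate 1 reached at most r = 0.9099 with any other library, whereas each of the other 5 reached at least 0.9499 with its nearest. Values without it are also given for each tested member and for a selection of other genes and lists. Where no such value is printed, no stability is implied. Cardiomyocyte markers, the defining genes of the tissue, summed to 7570 to 11930 FPKM (fragments per kilobase of transcript, scaled for depth) in the 6 hearts. The labels name no batch.

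Hbegf transcripts were several times more abundant in every Ang II heart than in any control heart. Hbegf (ENSMUSG00000024486) lies on the minus strand of chromosome 18 (GRCm38, 36504927 to 36515805). It stood at 0.774, 1.297 and 1.21 FPKM in control replicates 1, 2 and 3 and at 4.86, 10.8 and 9.93 FPKM in Ang II replicates 1, 2 and 3. The groups did not overlap, and the Ang II heart with the least Hbegf was replicate 1. On the scale of CPM (counts scaled to the effective library size), the control hearts had 5.10, 5.96 and 6.18 and the Ang II hearts 30.3, 51.4 and 46.4. Set against the control mean, the 3 Ang II hearts thus had 5.28, 8.94 and 8.07 times as much. The fitted log2 change was 2.89 (SE 0.24), a 7.42-fold difference, and it was 3.09 (SE 0.12) without Ang II replicate 1. Hbegf also moved within the ranking of genes by FPKM: between 43.3% and 48.1% of the tested genes lay below it in the control hearts, and between 80.2% and 88.3% in the Ang II hearts.

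**Figure D1:**
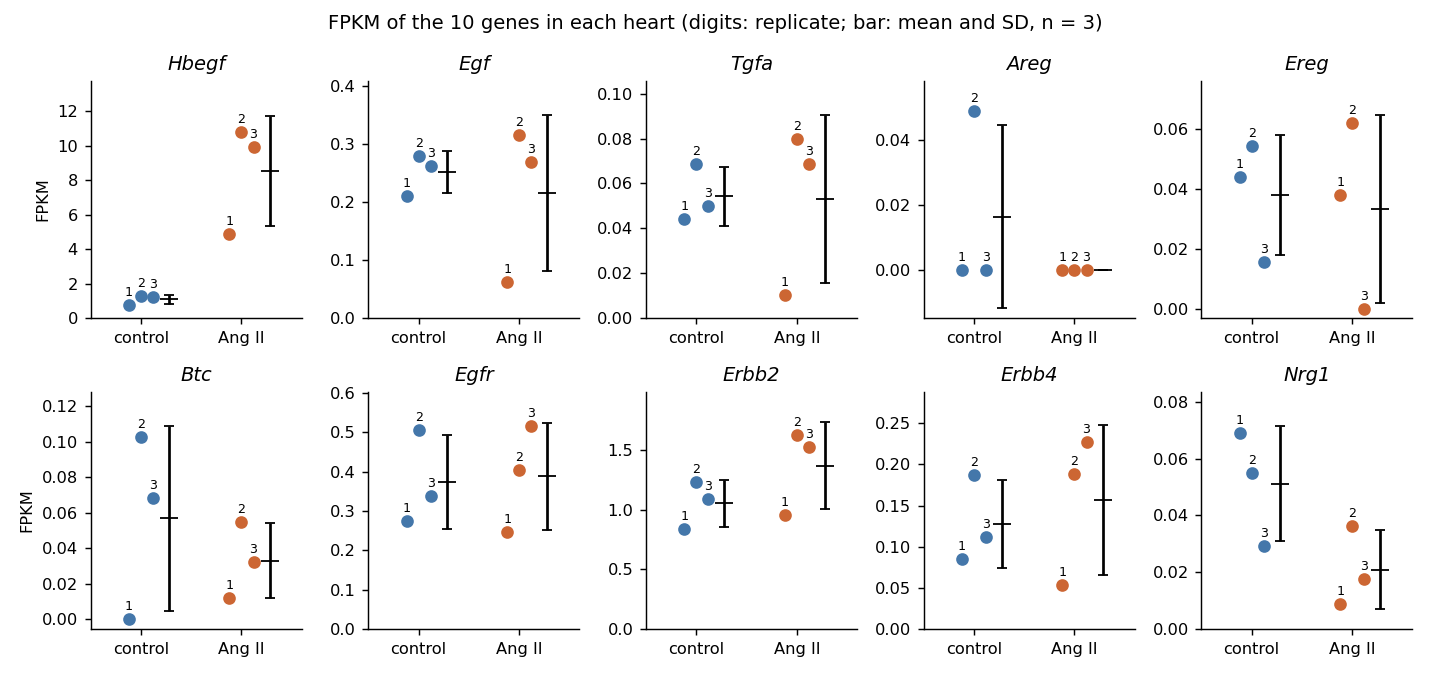
FPKM of each of the 10 genes in each heart, with a separate linear axis for each gene; points are hearts numbered by replicate, and the bars give the mean and SD of 3 hearts. Hbegf lies between 4.86 and 10.8 FPKM in the Ang II hearts and at or below 1.297 FPKM in the control hearts, while the groups of the other genes overlap on this scale.

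The other ligands of EGFR were low or nearly absent, and for each of them the groups overlapped. Egf, the founding ligand of the family, had 3.26, 3.02 and 3.15 CPM in the control hearts and 0.943, 3.53 and 2.97 CPM in the Ang II hearts. Ang II replicate 1 lay below all other hearts, and the other 5 differed little. Its log2 change was -0.33 (SE 0.45), and 0.05 (SE 0.18) without that library. Egf shares 1559 bases with the antisense gene 6330410L21Rik, which had 33 to 54 counts per library against 41 to 248 for Egf, and without strand reads of the shared stretch cannot be told apart. Tgfa, which encodes the ligand TGF-α, showed the same layout, with 0.394, 0.436 and 0.345 CPM in the controls and 0.092, 0.512 and 0.436 CPM in the Ang II hearts. Its log2 change was -0.16 (SE 0.67), and 0.27 (SE 0.46) without Ang II replicate 1.

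Ereg, Areg and Btc, which encode epiregulin, amphiregulin and betacellulin, were at the limit of what these libraries could show. Ereg had 12, 15 and 4 counts in the controls and 9, 18 and 0 counts in the Ang II hearts. Btc had 0, 30 and 19 counts in the controls and 4, 18 and 10 counts in the Ang II hearts. Areg had 4 counts in control replicate 2 and 0 in the other 5 hearts, and it was the 1 member that did not pass the filter on low counts. Since 4 was the commonest count above 0 in each library and 8 the next, a count of 4 may stand for as little as a single fragment. The log2 changes of Ereg (-0.28, SE 1.22) and Btc (-0.70, SE 1.18) were smaller than their errors. They were -0.54 (SE 1.53) and -0.43 (SE 1.39) without Ang II replicate 1. Together with Epgn, the gene of the ligand epigen, these genes lie on chromosome 5 within 375.5 kb (GRCm38, 91027464 to 91402994), and the 4 summed to 16, 49 and 23 counts in the controls and 13, 36 and 10 counts in the Ang II hearts.

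The windows upstream of Areg, the member with the fewest counts, and of its receptor gene Egfr are shown because they differ in the start-site motifs they hold. Each window holds the 250 bases before the annotated start, 5′ to 3′ on the gene's strand, from RefSeq on GRCm38.p6. Capitals mark matches on either strand to TATAAA (the TATA box), GGGCGG (a GC box), TGACGTCA (the cAMP response element) or TGANTCA (the AP-1 element), and no matches overlap in them. The Areg window is chr5:91139349-91139598 on the plus strand and the Egfr window chr11:16751953-16752202 on the plus strand.
Areg: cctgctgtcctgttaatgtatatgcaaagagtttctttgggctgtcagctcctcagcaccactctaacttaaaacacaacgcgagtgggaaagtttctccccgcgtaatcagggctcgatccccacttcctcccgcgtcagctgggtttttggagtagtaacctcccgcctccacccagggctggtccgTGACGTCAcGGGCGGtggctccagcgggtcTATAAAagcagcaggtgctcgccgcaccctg
Egfr: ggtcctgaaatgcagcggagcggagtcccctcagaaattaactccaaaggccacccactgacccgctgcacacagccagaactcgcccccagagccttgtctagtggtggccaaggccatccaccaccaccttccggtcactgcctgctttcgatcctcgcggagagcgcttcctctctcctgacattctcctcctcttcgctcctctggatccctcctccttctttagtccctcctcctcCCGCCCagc
The Areg window held TATAAA beginning 31 bases before the start, GGGCGG at 52 and TGACGTCA at 61, and the Egfr window held a single GC box, read on the opposite strand, at 9. Of 32851 RefSeq windows of this length, 12.37% held TATAAA, 32.74% GGGCGG, 1.55% TGACGTCA and 6.75% TGANTCA. RefSeq windows were examined for 7 of the 10 members, and not for Hbegf, Ereg and Nrg1. In the windows of Erbb2, Erbb4, Btc and Egf no match to these motifs was present. The Tgfa window held 2 GC boxes. The matches are a description of these windows and say nothing of which factors bind there.

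Hbegf thereby made up most of the EGFR ligand transcripts in all 6 hearts, and nearly all of them after Ang II. Of the FPKM summed over Hbegf, Egf, Tgfa, Areg, Ereg, Btc and Epgn, Hbegf held 70.0%, 70.1% and 75.3% in the control hearts and 97.5%, 95.5% and 96.4% in the Ang II hearts. Egf came second, with 15.1% to 19.0% in the controls and 1.25% to 2.78% in the Ang II hearts. The sum of the 7 genes was 1.52 ± 0.380 FPKM in the controls and 8.86 ± 3.39 FPKM in the Ang II hearts (mean ± SD, n = 3). Without Hbegf it was 0.428 ± 0.115 and 0.335 ± 0.197 FPKM, with Ang II replicate 1 lowest at 0.123 FPKM. The difference in the summed ligand level was thus carried by Hbegf alone among these 7 genes.

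**Figure D2:**
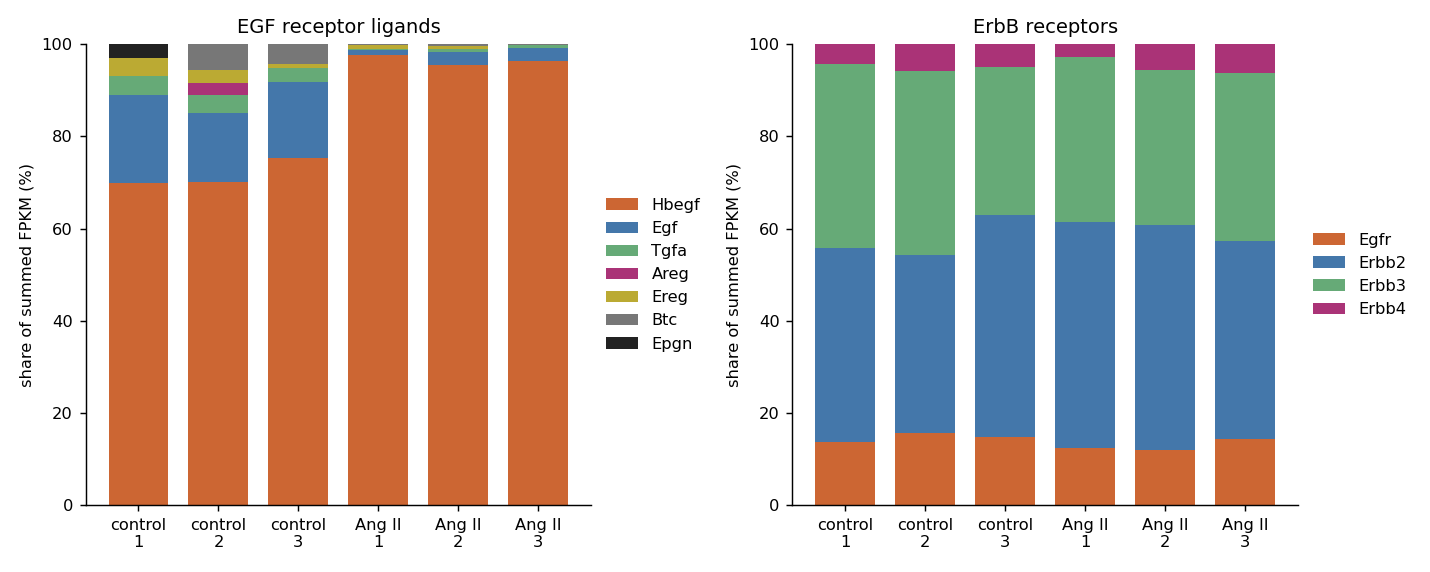
Share of each gene in the summed FPKM of the 7 EGFR ligand genes (left) and of the 4 ErbB receptor genes (right); each bar is 1 heart and adds up to 100%. Hbegf takes 70.0% to 75.3% of the ligand bars in the controls and 95.5% to 97.5% in the Ang II hearts, and the order of Erbb2, Erbb3, Egfr and Erbb4 by mean share is the same in both groups.

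Nrg1, the neuregulin gene among the members, was lower on average in the Ang II hearts, at very low counts and with overlapping groups. Nrg1 (ENSMUSG00000062991; chromosome 8, 31814551 to 32884797) had 67, 55 and 27 counts in the controls and 8, 41 and 19 counts in the Ang II hearts, or 1.47, 0.826 and 0.491 against 0.184, 0.583 and 0.267 CPM. Control replicate 3 lay below Ang II replicate 2. The log2 change was -1.40 (SE 0.62), and -1.12 (SE 0.63) without Ang II replicate 1. The neuregulin genes Nrg4 and Nrg2, not members, stood above Nrg1 by mean FPKM in both groups, and their groups overlapped in CPM. Nrg4 had 0.194 FPKM in the controls and 0.152 FPKM in the Ang II hearts (log2 change -0.38, SE 0.36). Nrg2 had 0.168 and 0.192 FPKM (log2 change 0.06, SE 0.47), and Nrg1 0.0511 and 0.0209 FPKM. Endothelial markers, from the cell type known to make neuregulin 1, summed to 139 to 189 FPKM in the controls and 138 to 145 FPKM in the Ang II hearts, and 8 of 9 had log2 changes below 0 (median -0.29). In CPM the groups did not overlap for 6 of the 9, all lower, beside 9.21% of all genes. Of the 9, edgeR called 0 over all genes and gave 4 lower at a raw p below 0.05, beside 3.94% of all genes. DESeq2 called 2 lower, Kdr and Vwf. Without Ang II replicate 1, 9 of 9 were lower at a raw p below 0.05 (median -0.41), beside 7.6% of all genes. In that fit edgeR called 0 of the 9 over all genes. The part of endothelial cells in the Nrg1 values was not tested.

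The receptor genes differed little between the groups. Egfr (ENSMUSG00000020122; chromosome 11, 16752203 to 16918158, plus strand) had 4.22, 5.44 and 4.05 CPM in the controls and 3.61, 4.51 and 5.65 CPM in the Ang II hearts. The lowest and the highest heart were both from the Ang II group. The log2 change was 0.01 (SE 0.24), or 0.15 (SE 0.205) without Ang II replicate 1. Erbb4, the receptor that binds both HB-EGF and the neuregulins, had 1.42, 2.21 and 1.45 CPM in the controls and 0.874, 2.30 and 2.73 CPM in the Ang II hearts. Again Ang II replicate 1 was the lowest heart, and the log2 change was 0.22 (SE 0.45), or 0.57 (SE 0.28) without it. The sum of the fibroblast markers was low in the same library, with 27.7 FPKM in Ang II replicate 1 and 57.3 to 88.1 FPKM in the other 5 hearts. Most of this gap lay in Dcn, with 9.18 against 35.2 to 56.9 FPKM, and the other 6 markers summed to 18.6 against 22.1 to 34.3 FPKM. By FPKM, every marker of the list except Ddr2 and Col1a2 was lowest in Ang II replicate 1. The part of fibroblasts in the Egfr value was not tested.

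Erbb2, which encodes the receptor without a ligand of its own that pairs with the others, stood slightly higher in the Ang II hearts. Erbb2 (ENSMUSG00000062312; chromosome 11, 98412470 to 98437716, plus strand) had 5.98, 6.10 and 6.02 CPM in the controls and 6.46, 8.38 and 7.72 CPM in the Ang II hearts. On this scale the groups did not overlap, while by FPKM they did, with 0.841, 1.23 and 1.09 against 0.957, 1.63 and 1.53. The log2 change was 0.32 (SE 0.17), and 0.42 (SE 0.12) without Ang II replicate 1. Erbb2 meets the protein-coding gene Mien1, on the opposite strand, at its last 9 bases, and whether the counting used strand is not given in the sources used here. Mien1 had 23.4, 21.3 and 21.6 CPM in the controls and 41.7, 26.3 and 25.0 CPM in the Ang II hearts, again without overlap between the groups, and the heart with the most Mien1 was the Ang II heart with the least Erbb2. Reads over the shared bases cannot be told apart without strand.

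Per length, the order of the members was led by Hbegf in both groups, and many neighbours in it could not be separated. In control hearts the means ran from Hbegf (1.09 FPKM) and Erbb2 (1.05 FPKM) over Egfr (0.372 FPKM), Egf (0.251 FPKM) and Erbb4 (0.128 FPKM) to Btc, Tgfa, Nrg1, Ereg and Areg, all at or below 0.0569 FPKM. The ranges of Hbegf and Erbb2 overlapped, as did those of Egfr and Egf and of every pair of neighbours from Erbb4 down. In Ang II hearts Hbegf (8.52 FPKM) stood clear of Erbb2 (1.37 FPKM), and Erbb2 clear of Egfr (0.388 FPKM). From Egfr down, neighbours overlapped except for Nrg1 and Areg, the latter listed at 0. Erbb3, the fourth receptor and a partner of ERBB2 that has little kinase activity of its own, stood at 6.15 ± 1.35 CPM in the controls and 6.56 ± 1.05 CPM in the Ang II hearts (log2 change 0.09, SE 0.23; adjusted p = 0.931 in edgeR's quasi-likelihood test). Its log2 change was 0.21 (SE 0.22) without Ang II replicate 1. By FPKM, Erbb2 made up 42.9% ± 4.78 of the 4 receptor genes in the controls and 46.8% ± 3.50 in the Ang II hearts, Erbb3 37.3% ± 4.41 and 35.3% ± 1.56, Egfr 14.8% ± 1.04 and 13.0% ± 1.25, and Erbb4 5.0% ± 0.815 and 4.92% ± 1.92 (mean ± SD, n = 3). There were 2.82, 2.57 and 3.58 FPKM of Hbegf per FPKM of Egfr in the control hearts and 19.8, 26.7 and 19.2 in the Ang II hearts.

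Over all genes, edgeR called 6 of 16759 (0.0358%) at an adjusted p under 0.05, all higher, and 1 of the 9 members tested, Hbegf, which prompted the choice of the family. At a raw (unadjusted) p below 0.05, 1 member was higher and 0 lower, beside 3.57% and 3.94% of all genes. Groups did not overlap in CPM for 2 members, both higher, beside 7.97% of all genes higher and 9.21% lower. DESeq2 called the same single member, and 1.65% of all genes. Without Ang II replicate 1, edgeR again called that member only, beside 0.73% of all genes, and at a raw p below 0.05 gave 2 members higher (Hbegf and Erbb2) and 0 lower, beside 7.75% and 7.6% of all genes. Hbegf was called in 6 of 14 alternative fits and was not called in the other 8: both limma fits, the replicate block, and each fit that left out a single control heart, Ang II replicate 2 or Ang II replicate 3. The median log2 change of the 9 members was -0.16, with 4 above 0, against 0.01 over all genes tested, and it was 0.15 without Ang II replicate 1. Since the contrast prompted the choice, nothing is read from these counts.

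The genes whose log2 CPM followed Hbegf most closely over the 6 hearts were Acta1 (r = 0.9995), Asrgl1 (0.9979), Xirp1 (0.9975), Nqo1 (0.9966) and Pcp4l1 (0.9952), of 6443 candidates. Acta1 encodes skeletal α-actin, a marker of the fetal gene programme of stressed heart muscle, Xirp1 a protein that binds actin at the junctions between cardiomyocytes and Nqo1 a quinone reductase of the oxidative stress response. The values of r follow largely from the gap between the groups, since Hbegf falls into separate clusters of hearts. For Egfr, which has no such gap, the closest genes were Sh3pxd2a (r = 0.9784), Ankle2 (0.9635), Ahsa1 (0.9596), the fibrillar collagen gene Col1a2 (0.9546) and Eloa (0.9523). All these libraries share depth and composition effects, and the values are a description with no test.

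The other genes of the pathway, 133 in 8 lists by role, were tested in the same fit. Of 126 that passed the filter on low counts, edgeR called 0 over all genes, with 6 higher and 13 lower at a raw p below 0.05. Over all genes tested, 3.57% were higher and 3.94% lower at that level. Without Ang II replicate 1 these shares were 7.75% and 7.6%, and both pairs stand beside the list counts below. Of the 126, the groups did not overlap in CPM for 6 higher and 22 lower, beside 7.97% and 9.21% of all genes. The median log2 change of the 126 was -0.09 against 0.01 over all genes tested, and 0.01 without Ang II replicate 1. DESeq2 called 7 of them, 3 higher (Gpc1, Foxo3 and Atf3) and 4 lower (Spry4, Egr1, Fosb and Phlda1). Without Ang II replicate 1, edgeR called 3, among them Foxo3, higher, and Ier2, lower; the rule for named genes did not cover Ier2 and Fosb, which were picked with their values in view. The KEGG term for ErbB signaling in the table covered each of the 10 members and 74 other genes, 41 of them also in the 8 lists. Of the 70 tested, edgeR called 0 and gave 2 higher and 4 lower at a raw p below 0.05, while DESeq2 called 1, Eif4ebp1, and edgeR without Ang II replicate 1 called 1, Cdkn1a, both higher and both picked with their values in view.

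**Figure D3:**
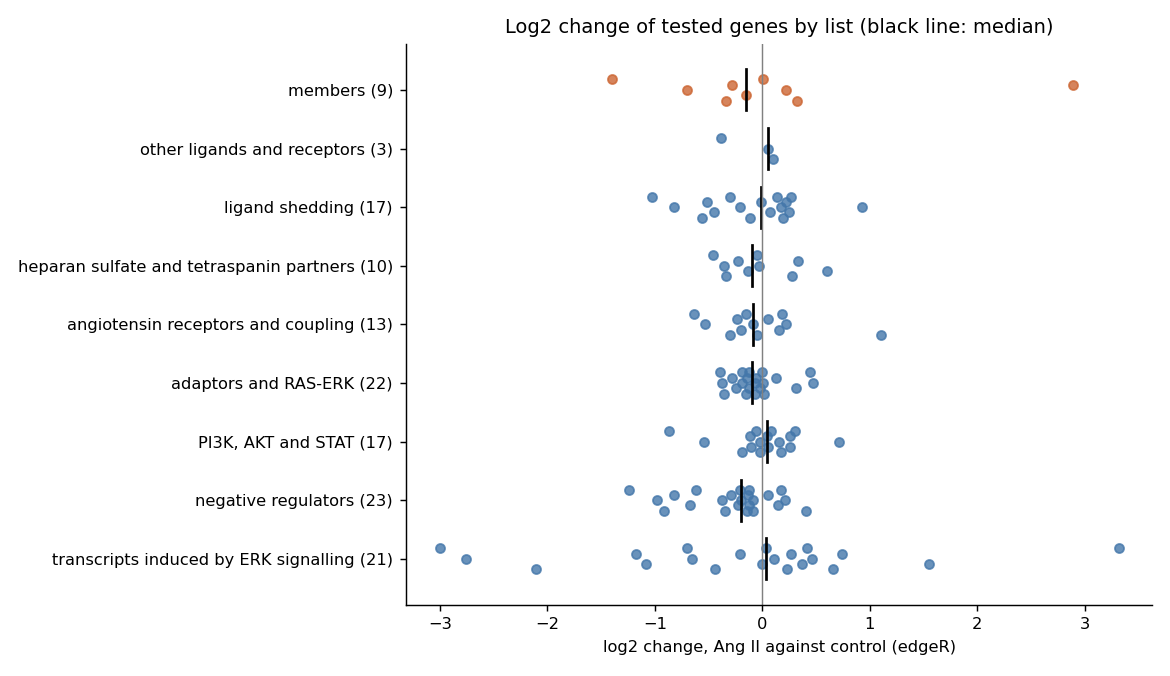
Log2 change between Ang II and control hearts from edgeR for each tested member and for each tested gene of the 8 pathway lists, with the number tested in parentheses; black lines are medians. Hbegf, at 2.89, lies apart from the other members, and the widest list is that of transcripts induced by ERK signalling, from -3.00 to 3.31.

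Genes that act before the receptor gave no call in edgeR's test over all genes. Among ligand-releasing proteases and their partners, 0 of 17 reached a raw p below 0.05, DESeq2 called 0, and the median log2 change was -0.01. At that level 2 were higher and 1 lower without Ang II replicate 1. Adam17, which encodes the main ligand sheddase, stood at 15.5 ± 2.56 CPM in the controls and 14.2 ± 2.88 CPM in the Ang II hearts (log2 change -0.12, SE 0.21), a gene named after its value was seen. The 3 with the smallest p were Adam8 (log2 change -0.82, SE 0.38), Adam19 (-0.56, SE 0.28) and Timp1 (0.93, SE 0.50), the last an inhibitor of metalloproteases. The value of Timp1 was 0.25 (SE 0.34) without Ang II replicate 1. Of 13 genes for angiotensin receptors and their coupling, 0 were called by edgeR or DESeq2 and 2 were lower at a raw p below 0.05, the protein kinase gene Prkcd (12.6 ± 1.14 against 8.70 ± 0.433 CPM) and the phospholipase gene Plcb1 (4.79 ± 1.08 against 3.09 ± 0.379 CPM). Agtr1a, the main Ang II receptor, had 17.3, 16.3 and 16.1 CPM in the controls and 11.2, 14.8 and 14.4 CPM in the Ang II hearts (log2 change -0.30, SE 0.16; adjusted p = 0.715 by edgeR). The groups did not overlap, and the log2 change was -0.18 (SE 0.10) without Ang II replicate 1.

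Cell surface partners of the ligands were split. HB-EGF binds heparan sulfate, the sugar chains carried by glypicans, syndecans and perlecan. Gpc1, which encodes glypican 1, had 106, 120 and 124 CPM in the controls and 198, 165 and 166 CPM in the Ang II hearts (log2 change 0.60, SE 0.15; adjusted p = 0.463 by edgeR and 0.0227 by DESeq2). Hspg2, the gene of perlecan, had 226, 252 and 234 CPM in the controls and 147, 177 and 193 CPM in the Ang II hearts (log2 change -0.46, SE 0.16; adjusted p = 0.583 by edgeR). Neither pair of groups overlapped. Sdc3, a syndecan gene, gave -0.35 (SE 0.17), and -0.22 (SE 0.09) without Ang II replicate 1. Of the 10 tested, edgeR called 0, and 1 was higher and 1 lower at a raw p below 0.05.

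Downstream of the receptors, adaptors and RAS-ERK components lay close to control levels. Of 22 tested, edgeR and DESeq2 called 0, 0 reached a raw p below 0.05 by edgeR, and log2 changes ran from -0.40 to 0.47. Leaving out Ang II replicate 1 gave 2 higher and 1 lower at a raw p below 0.05. Plcg1 (-0.38, SE 0.19), Mapk7 (-0.40, SE 0.21) and Map2k2 (0.47, SE 0.28) had the smallest p. Map2k2 reached 113 CPM in Ang II replicate 1, against 51.8 to 64.4 CPM in the other 5 hearts, and without that library its log2 change was 0.10 (SE 0.13) and that of Plcg1 -0.23 (SE 0.12). In the PI3K, AKT and STAT list edgeR called 0 of 17, with 2 higher at a raw p below 0.05, and 5 higher without Ang II replicate 1. Foxo3, a transcription factor that AKT keeps out of the nucleus, had 29.5, 26.4 and 27.5 CPM in the controls and 41.2, 47.0 and 47.9 CPM in the Ang II hearts (log2 change 0.71, SE 0.14; adjusted p = 0.314 by edgeR and 0.000214 by DESeq2). Pik3cb, a catalytic subunit, gave -0.87 (SE 0.51), and -0.47 (SE 0.27) without Ang II replicate 1.

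Negative regulators of ErbB and ERK signalling had log2 changes below 0 in 18 of 23 tested genes, with a median of -0.20, beside 8222 of all 16759 genes tested. Without Ang II replicate 1 the median was -0.06, and edgeR gave 5 lower and 0 higher at a raw p below 0.05. In CPM the groups did not overlap for 6 lower and 0 higher, beside 9.21% and 7.97% of all genes. With all 6 hearts, edgeR called 0 over all genes and gave 5 lower at a raw p below 0.05, and DESeq2 called 1. The gene it called was Spry4, a Sprouty gene that is itself induced by ERK, with 7.92, 13.3 and 9.58 CPM in the controls and 5.45, 4.79 and 5.37 CPM in the Ang II hearts (log2 change -0.98, SE 0.23; adjusted p = 0.395 by edgeR and 0.0253 by DESeq2). Dusp6, the phosphatase of ERK, had 11.7, 14.1 and 11.4 CPM in the controls and 6.00, 5.89 and 9.11 CPM in the Ang II hearts (log2 change -0.83, SE 0.22; adjusted p = 0.487 by edgeR). All 3 Ang II hearts lay below the control hearts for both genes. Spred2 gave -0.62 (SE 0.20). Without Ang II replicate 1, Spry4 gave -1.01 (SE 0.24), Dusp6 -0.73 (SE 0.22) and Spred2 -0.45 (SE 0.12). Errfi1, whose product binds and inhibits the EGFR kinase, had 19.1, 20.7 and 19.99 CPM in the controls and 8.40, 15.3 and 13.8 CPM in the Ang II hearts (log2 change -0.67, SE 0.24; adjusted p = 0.586 by edgeR); the naming rule did not cover this gene.

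Transcripts that ERK signalling is known to induce went in both directions. Of 21 tested, edgeR called 0 over all genes and gave 3 higher and 5 lower at a raw p below 0.05, with a median log2 change of 0.04. Without Ang II replicate 1 these were 5 higher and 6 lower, with a median of -0.14. Egr1, an immediate early transcription factor, had 41.2, 167 and 114 CPM in the controls and 20.6, 27.3 and 26.9 CPM in the Ang II hearts (log2 change -2.10, SE 0.48; adjusted p = 0.392 by edgeR and 0.0023 by DESeq2). Control replicate 1 lay well below the other control hearts for Egr1, for Atf3 and for Fosb. For Fosb it had 3.57 CPM, against 44.9 and 25.8 CPM in control replicates 2 and 3. The stress factor Atf3 had 2.82, 18.7 and 11.7 CPM in the controls and 63.3, 137 and 131 CPM in the Ang II hearts (log2 change 3.31, SE 0.69; adjusted p = 0.343 by edgeR and 3.79e-05 by DESeq2). Phlda1 had 14.9, 14.3 and 14.9 CPM in the controls and 4.92, 6.97 and 8.81 CPM in the Ang II hearts (log2 change -1.09, SE 0.23). For Egr1, Atf3 and Phlda1 the groups did not overlap.

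**Figure D4:**
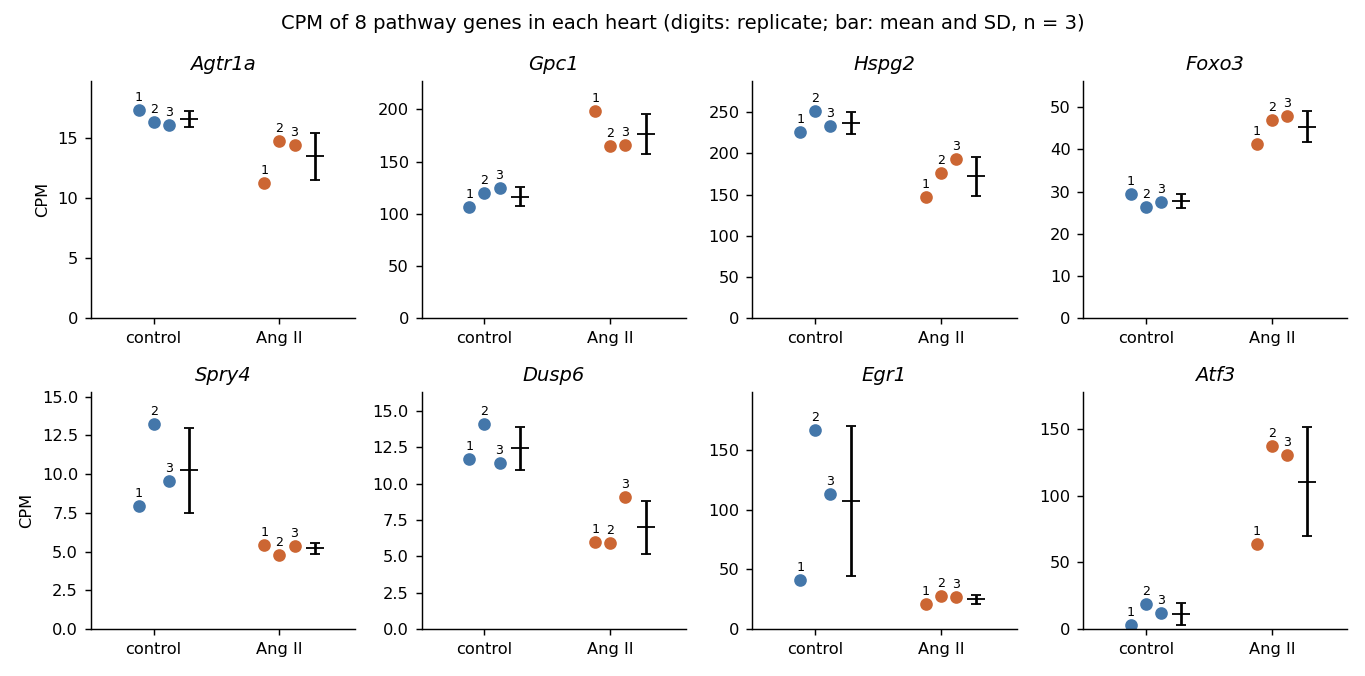
CPM of 8 pathway genes in each heart, each on its own axis from 0; points are hearts numbered by replicate, and the bars give the mean and SD of 3 hearts. The groups do not overlap for any of the 8, Gpc1, Foxo3 and Atf3 being higher in the Ang II hearts and the other 5 lower. All 8 are among the 3 genes with the smallest p of their lists, so the gaps follow in part from this choice. Over all genes tested, the groups did not overlap for 7.97% higher and 9.21% lower. Of the 8, edgeR called 0 over all genes.

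Markers of other cell types overlapped between the groups in some lists and not in others. Macrophage markers, from cells known to make HB-EGF, summed to 78.6 to 117 FPKM in the control hearts and to 159, 83.5 and 99.3 FPKM in the Ang II hearts 1, 2 and 3, and edgeR gave 0 of 9 higher and 1 lower at a raw p below 0.05, or 4 lower without Ang II replicate 1. The high sum of that library lay in C1qa, C1qb and C1qc, at 146 against 66.5 to 95.1 FPKM, while the other 6 markers summed to 13.1 FPKM there and to 12.1 to 21.9 FPKM in the other 5 hearts. Neutrophil markers had log2 changes below 0 in 4 of 4 tested genes (median -1.18), with 1 lower at a raw p below 0.05. Cardiomyocyte markers had log2 changes above 0 in 8 of 8 (median 0.26), and edgeR gave 0 of them at a raw p below 0.05. Without Ang II replicate 1 it gave 4 higher, with a median of 0.21, while Myl2 lay below 0 at -0.10 (SE 0.09). Smooth muscle and pericyte markers summed to 123 to 195 FPKM in the controls and 118 to 178 FPKM in the Ang II hearts. Red blood cell genes summed to 1132 to 2011 FPKM in the controls and 603 to 639 FPKM in the Ang II hearts, with 5 of 5 lower at a raw p below 0.05 by edgeR and 4 called lower by DESeq2. Markers of Schwann cells, which are known to carry ERBB3, summed to 1.422 to 1.499 FPKM in the controls and 0.782 to 1.13 FPKM in the Ang II hearts. Adipocyte markers summed to 1.39 to 2.82 FPKM in the controls and 0 to 0.732 FPKM in the Ang II hearts, with 3 of 3 tested genes below 0 (median log2 change -2.29) and 1 lower at a raw p below 0.05. In none of the 13 marker lists did edgeR call a gene over all genes, while DESeq2 called the 6 endothelial and red cell genes counted above. The part of cell composition in the member values was not tested.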

How the data were processed

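Poly(A) RNA of 3 control and 3 Ang II mouse hearts was sequenced, 1 library per heart. The authors deposited 1 table with an estimated count and an FPKM value per gene and library. Bowtie 0.12.2, HISAT2 2.0 and StringTie 1.3.0 stand in the submitters' processing notes. Those notes name mm8, but 94.2% of the 55141 gene identifiers shared with GENCODE M21 lie at their GRCm38 coordinates, so positions are given as GRCm38. The strand setting of the counting is not given in the sources used here. The deposited FPKM of 0.0001 stood where the count was 0 and was read as 0.

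Groups came from the sample labels, and the series text speaks of 3 mice in each group. Each test thus sets the difference between the groups against the spread among the animals within them. Estimated counts were whole numbers and were tested with edgeR 4.0.16 (filterByExpr, TMM scaling, quasi-likelihood F test, Benjamini-Hochberg adjustment over all 16759 genes tested, threshold 0.05); errors of log2 changes were derived from that test. CPM used TMM-scaled library sizes. The script was tested on simulated data. Alternatives were DESeq2 1.42.0, limma 3.58.1 on log2(FPKM + 0.5) or log2(FPKM + 0.1), other scalings, no filter, a replicate block, each library left out, and counts divided by 4 and rounded up (chosen after seeing the data). Same-numbered hearts had correlations of deviations of 0.078, 0.112 and -0.037, and those of differently numbered hearts ran from -0.128 to 0.076. Whether the numbers pair the hearts is not known.

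The members, the pathway and marker lists and the tests were chosen with earlier results of these data known. Named genes were all members, any pathway or KEGG gene past the threshold, the 3 genes with the smallest p in each tested pathway list, the 5 genes most correlated with Hbegf and with Egfr (at least 2 FPKM on average in a group), and Agtr1a. One list gene, Nrdc, was matched by its synonym Nrd1. Total counts overstate the sampling depth, since 4 was the commonest count above 0, so no counting intervals are given. Results for 2 pathway genes are not reported here.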

Additional observations from a re-analysis of the deposited data

How the results depend on the processing

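The log2 change of Hbegf kept its sign in all 14 alternatives (2.44 to 3.09), as did Erbb2 (0.23 to 0.42), and Nrg1 (-2.01 to -0.92) and Btc (-1.27 to -0.09) in the 11 that could be fitted. Egfr kept it in 8 of 12 (-0.17 to 0.15), Egf in 11 of 12, Erbb4 in 11 of 12, Tgfa in 10 of 11 and Ereg in 9 of 11. The number of genes called over the whole table moved far more than these values. It was 6 by edgeR, 12 without the filter on low counts, 276 by DESeq2, 3 by limma with a pseudocount of 0.5 and 2 with 0.1, and 11 with counts divided by 4. With a replicate block it was 0, with 1104 genes at a raw p below 0.05. Whether the numbers pair the hearts is not known, and not every heart correlated best with its own number. Leaving out 1 library gave 0 to 129 genes, with 0 without any 1 of the 3 control hearts or Ang II replicate 3, 2 without Ang II replicate 2 and 129 without Ang II replicate 1. Of the other pathway genes, 0 were called by edgeR, 7 by DESeq2 and 0 to 3 with 1 library left out, the 3 without Ang II replicate 1. For the KEGG list these numbers were 0, 1 and 0 to 1. Shares of Hbegf computed from CPM, with no correction for length, were 58.7% in control and 93.5% in Ang II hearts, and those of Erbb2 33.05% and 36.8%. The cause of the other changes was not tested. With 3 hearts a group, exact permutation of a single gene cannot go below p = 0.10. Depth limited Areg, Ereg, Btc, Tgfa and Nrg1, each at or below 67 counts in every library.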

Other observations

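Of the 47 genes within 500 kb of Hbegf, 21 were tested, with a median log2 change of 0.06. At a raw p below 0.05, edgeR gave 4 higher and 0 lower, beside 3.57% and 3.94% of all genes. It called 0 of the 21 over all genes, and DESeq2 called 1. That gene, Slc35a4, named after its values were seen, had a log2 change of 1.41 (SE 0.30; adjusted p = 0.350 by edgeR's quasi-likelihood test). The nearest tested genes on either side were Ankhd1 (-0.29) and Pfdn1 (0.44).

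Single libraries held unusually low values of broadly used genes of the pathway. Adam10, a sheddase gene, had 0.414 CPM in Ang II replicate 1 against 3.46 to 6.71 CPM in the other 5 hearts. Spry1, a Sprouty gene, had 0.299 CPM in Ang II replicate 2 against 9.32 to 28.1 CPM in the others. Both were named after their values were seen.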
